A study of Mus musculus with 4 samples.

Results

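Chromatin immunoprecipitations against a cofactor and against one of its DNA-binding partners were compared directly, with 1 library a side: the Ldb1 library and the Scl/Tal1 library of a series of 4. The bins tested were the 31955 of 4302944 covered bins of 500 bp that held at least 10 tags of both libraries together. The series addresses how Ldb1 acts in the upkeep of blood stem cells. The remaining 2 libraries, Gata2 and control IgG, served only as further readouts. All 4 came from mouse bone marrow progenitor cells left after lineage-positive (Lin+) cells had been removed with magnetic beads. The cells were crosslinked fresh with formaldehyde and their chromatin sonicated. Strain, age, genotype and number of animals are not stated in the labels. The cell type could not be checked against marker genes, because tags were placed in the mm8 build and no gene annotation of mm8 was used here. With 1 library per antibody there is no replicate. Every interval and test below compares these libraries, not conditions, and covers counting error only.

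Ldb1 (LIM domain binding protein 1) does not touch DNA itself. It forms dimers and binds LIM-domain proteins such as Lmo2, which in turn hold Tal1 and its E-protein partner together with a GATA factor. Tal1 is a basic helix-loop-helix protein that reads E-box sequences, and it is required for blood formation. An Ldb1 library therefore reports a cofactor carried to DNA by other proteins, and a Tal1 library reports one of its carriers.

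Sequence tags on chromosomes 1 to 19 were counted once per 5′ end and strand. This left 3866477 Ldb1 tags of 5772492 deposited there and 8701045 Tal1 tags of 10663969. Tal1 was thinned at random to the 3866477 tags of Ldb1, so that the genome-wide tag ratio is 1. In the tested bins pooled the ratio was 0.726 (0.723 to 0.730), so a ratio of 1 in a bin is above that of most bins with many tags. The 4834568 Tal1 tags left over supplied a separate set of the same size, called the left-out Tal1 tags. Gata2 was also thinned to 3866477 tags, and IgG kept its 3401045. Of the bins of 500 bp laid from position 0, 4302944 held a tag of any library, with a mean of 0.899 Ldb1 and 0.899 Tal1 tags each. A library was said to rise in a bin at 9 or more tags, which is at least 10 times that mean.

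Most Ldb1-risen bins were also Tal1-risen, but most Tal1-risen bins were not Ldb1-risen. Tal1 was risen 173 times as often in Ldb1-risen bins as in all bins. By the same measure, Gata2 was risen 136 times as often in Ldb1-risen bins and 103 times as often in Tal1-risen bins. Ldb1 rose in 9811 bins (0.228% of all bins) and Tal1 in 17346 (0.403%). Both rose in 6858 bins (0.159%), which joined into 5578 regions when bins at most 500 bp apart were merged. Of the Ldb1-risen bins, 69.9% (95% exact interval 69.0 to 70.8) were also Tal1-risen. Of the Tal1-risen bins, 39.5% (38.8 to 40.3) were also Ldb1-risen. Of the Tal1-risen bins, 70.0% (69.3 to 70.7) rose again in the left-out Tal1 tags, so a second draw from one library returned no more than this share. The share of Tal1-risen bins found with Ldb1 was lower than this. Ldb1 rose in fewer bins, 9811 against 17346, so that share could not have reached 70.0% whatever the overlap. The shares of 69.9% and 39.5% divide the same 6858 bins by these different totals. All Ldb1 tags were in use, so no second draw of them gave a like reference for the Ldb1-risen bins. Neighbouring bins are not independent, so the true intervals are wider.

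The rise was graded. Bins with 3 to 5 Ldb1 tags held a mean of 1.32 Tal1 tags, those with 9 to 14 held 11.9, those with 25 to 49 held 36.4 and the 103 bins with 100 or more held 98.0. From 50 Ldb1 tags upwards every bin was Tal1-risen (345 bins with 50 to 99 tags and the 103 above). In the other direction, bins with 9 to 14 Tal1 tags held a mean of 5.97 Ldb1 tags and 22.1% of them were Ldb1-risen. This share was 49.2% at 15 to 24 Tal1 tags, 82.7% at 25 to 49 and 99.3% at 50 to 99. IgG did not follow in most of these bins: its median was 1 tag at every Ldb1 and Tal1 level. Its mean nevertheless reached 29.6 tags in the 103 strongest Ldb1 bins, since 23.3% of them were at least 10 times the IgG mean.

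Across the 6858 both-risen bins, log2 tag numbers of Ldb1 and Tal1 correlated at 0.670 (Spearman's rho 0.574). Ldb1 with Gata2 gave 0.260 (rho 0.184), and Tal1 with its own left-out tags gave 0.872 (rho 0.867). These are correlations over bins chosen for high Ldb1 and Tal1 counts. The bins share libraries and are no replicates.

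**Figure D1:**
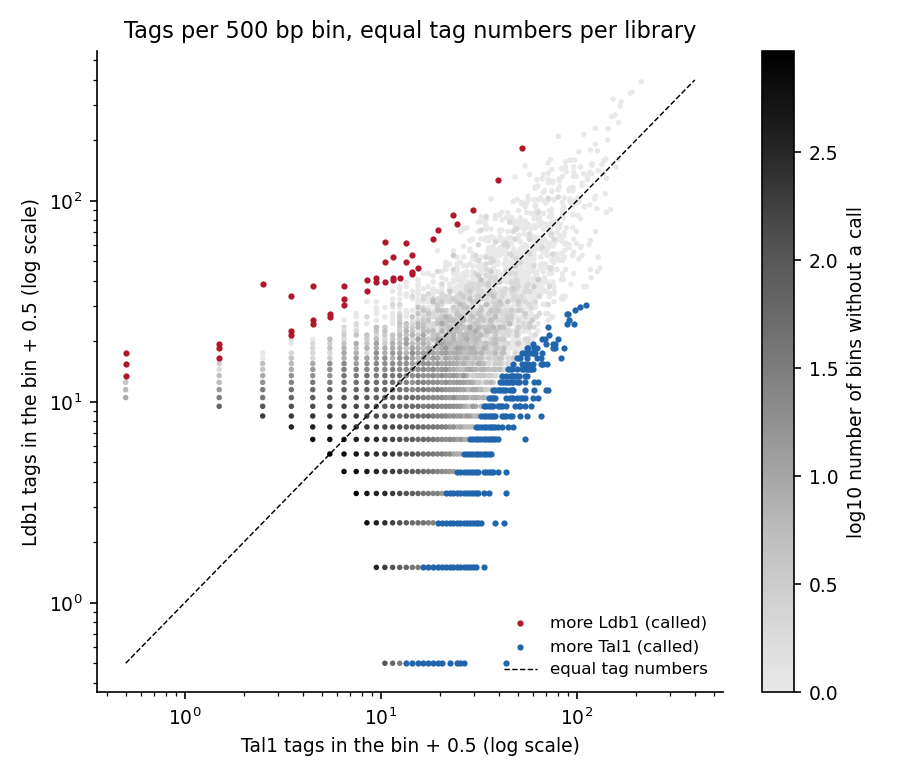
Ldb1 tags (vertical, log scale) against Tal1 tags (horizontal, log scale) per 500 bp bin for the 31955 bins with at least 10 tags in both libraries together, with 0.5 added to each count. Grey shading gives the number of bins at a point, red and blue mark the 47 bins called for more Ldb1 and the 707 called for more Tal1, and the dashed line marks equal numbers; most of the called bins lie below the line, and the cloud narrows around it towards the upper right.

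The regions in which both libraries were highest were ranked by the lower of the 2 tag numbers in a bin. The bin on chromosome 17 from 39452001 to 39452500 came first, with 391 Ldb1, 213 Tal1, 400 Gata2 and 108 IgG tags. It belongs to a run of 12 both-risen bins from 39451001 to 39457000, all dense in IgG. The bin on chromosome 2 from 98467501 to 98468000 was dense in IgG as well, with 158 Ldb1, 137 Tal1, 108 Gata2 and 158 IgG tags. Its 158 Ldb1 positions came from 1825 deposited tags. All 4 libraries were thus high at both places.

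The other 8 of the 10 highest had 0 or 1 IgG tag. On chromosome 7, the bin from 80082501 to 80083000 held 160 Ldb1 and 162 Tal1 tags, 21 Gata2 tags and 1 IgG tag. On chromosome 11, the bin from 95172501 to 95173000 held 147 Ldb1, 158 Tal1 and 38 Gata2 tags. On chromosome 15, the bin from 38488001 to 38488500 held 201 Ldb1 and 143 Tal1 tags but 10 Gata2 tags, a Ldb1 to Tal1 ratio of 1.41 (exact interval 1.13 to 1.75). In the bin on chromosome 14 from 53660001 to 53660500 all 3 factors were high, with 161 Ldb1, 140 Tal1 and 82 Gata2 tags.

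Gata2 ranged from 10 to 82 tags in these 4 bins, and Ldb1 and Tal1 from 140 to 201. The ranking by the lower count kept Ldb1 and Tal1 high by choice, while Gata2 had no part in it. These ranges therefore cannot show whether Ldb1 and Tal1 vary together apart from Gata2. The bins on chromosome 17 from 24586501 to 24587000 (137 Ldb1 and 136 Tal1 tags), chromosome 16 from 32429001 to 32429500 (151 and 134), chromosome 5 from 121476501 to 121477000 (129 and 141) and chromosome 10 from 120972001 to 120972500 (141 and 128) completed the list. Their ratios lay between 0.915 and 1.13, and each interval included 1.

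Of the 100 both-risen regions with the largest lower count (71 tags or more), 99 had best bins within 2-fold of equality. Ranking by the lower count favours even bins, so this closeness and the lack of calls among them were partly set by the choice. More Ldb1 than Tal1 was found in 72 of them and more Tal1 in 23, with 5 equal. None was called for a departure in either direction. The lead of Ldb1 did not hold in other tag sets: with repeated tags kept, 53 had relatively more Ldb1 and 47 more Tal1, and with tags thinned before repeats were removed 51 and 49. The 5 equal ones held 74 to 95 tags of each library and 7 to 30 Gata2 tags, with 0 to 2 IgG tags: chromosome 2 from 166321501, chromosome 4 from 62003001, chromosome 6 from 38271501, chromosome 12 from 85093501 and chromosome 19 from 4113001. Gata2 itself was risen in 84 of the 100 and had a median of 20 tags. The 5 were chosen for equality in this thinning. Their left-out Tal1 tags numbered 74 to 93, and with repeated tags kept 0 of the 100 regions were equal. Gata2 ranged from 3 to 400 tags over the 100 regions, so the 5 covered a small part of that range.

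Departures from the genome-wide ratio were tested in the 31955 bins with at least 10 tags in both libraries together, by an exact two-sided binomial test with Benjamini-Hochberg adjustment over all of them. A call needed a false discovery rate of 0.01 and a ratio of at least 3-fold after adding 0.5 to each count. In all, 754 bins (2.36% of those tested) were called. Tal1 exceeded Ldb1 in 707 bins (2.21%) and Ldb1 exceeded Tal1 in 47 (0.147%). The same test between the Tal1 tags and the left-out Tal1 tags gave 0 calls in 41093 bins (0%). Both sets were drawn from 1 library, so few calls could arise there, and differences between libraries are not covered. At an unadjusted p under 0.05 there were 1070 bins (2.6%) between the 2 Tal1 sets, against 6407 (20.1%) for Ldb1 against Tal1. Most bins without a call also leaned to Tal1: it had more tags in 65.4% of the tested bins and Ldb1 in 27.8%. Calls were made against the genome-wide ratio of 1, not against the 0.726 of the tested bins pooled. With repeated tags kept, 2968 bins were called for Tal1 and 1459 for Ldb1, so the Tal1 share of the calls was 67.0% in place of 93.8%. These included 649 of the 707 and 37 of the 47. With tags that align without a mismatch, the counts were 332 and 39, including 250 and 14.

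Which bins passed depended on the draw of Tal1 tags. A second random thinning gave 713 and 38 calls, and shared 438 of the 707 Tal1 bins and 25 of the 47 Ldb1 bins. With all tags of both libraries, 812 and 84 bins were called, including 542 of the 707 and 33 of the 47. No bin changed direction in either. With bins moved by 250 bp, 58.4% of the 707 and 61.7% of the 47 were overlapped by a call of the same direction.

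The 707 bins with more Tal1 held a median of 28 Tal1 tags and 4 Ldb1 tags. Pooled, Tal1 was 5.64 times Ldb1 (5.45 to 5.84). The left-out Tal1 tags, which had no part in the choice, gave 4.89 times (4.72 to 5.06). Ldb1 was low relative to Tal1 in these bins but above its genome-wide mean, with a pooled level of 6.17 times its mean per bin (5.98 to 6.36). Of the 707, 174 (24.6%) were Ldb1-risen and 105 (14.9%) held no Ldb1 tag. Over all tested bins the Ldb1 level was 9.99 times its mean, 30.6% were Ldb1-risen and 0.942% held no Ldb1 tag. The 707 were thus below tested bins in general, and their choice favoured low Ldb1. IgG stood at 1.02 times its mean (0.938 to 1.11), and 11 bins were at 5 or more times the IgG mean, called dense in IgG here. Nearly all stood apart from other bins called for more Tal1: the 707 bins made 684 regions, 665 of them a single bin. Such calls were only 2.21% of tested bins, and the regions leave out uncalled neighbours with many tags.

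The largest Tal1 excess by the bound of the interval nearest to 1 was on chromosome 1 from 43478501 to 43479000. This bin held 43 Tal1 tags, 42 left-out Tal1 tags, 5 Gata2 tags, 1 IgG tag and no Ldb1 tag. A count of 0 allows up to 3 tags in this library, and the exact interval of the Tal1 to Ldb1 ratio began at 11.2. Further bins held 24 to 26 Tal1 tags and none of Ldb1, with intervals that began at 6.02 to 6.56. They were on chromosome 8 from 60384001, chromosome 14 from 75493501, chromosome 16 from 45491501, chromosome 5 from 124442501 and chromosome 11 from 8482501.

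Their left-out Tal1 tags, which did not choose them, numbered 16, 23, 14, 28 and 16. The bin on chromosome 11 from 8482501 held 25 Tal1 and 12 Gata2 tags. Single Ldb1 tags were found on chromosome 4 from 117603001 and on chromosome 11 from 68649001, each with 33 Tal1 and 5 Gata2 tags. The last of the 10, on chromosome 12 from 17022501 and chromosome 14 from 29377501, held 22 Tal1 tags each and none of Ldb1. Their left-out tags numbered 12 and 19. IgG had 0 or 1 tag in all 10, so no excess of control tags was seen there. The smallest total of a called bin, in either direction, was 13 tags.

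The 47 bins with more Ldb1 were divided by their IgG tags. In 21 of them (44.7%, against 1.43% of all bins) IgG was dense, with a pooled level of 39.6 times its mean (36.7 to 42.8). Only 35.2% of the Ldb1 tags there aligned without a mismatch, against 75% over chromosomes 1 to 19, and 66.9% repeated a position, against 33.0%. Pairs of forward and reverse Ldb1 tags were more frequent near 25 bp apart (7.82 times the level near 400 bp) than at 121 bp (2.21 times). In the other 26 bins IgG was at 0.827 times its mean (0.482 to 1.32), 74.8% of Ldb1 tags had no mismatch, and strand pairs at 120 bp apart were 8.17 times the level near 400 bp, against 4.11 times near 25 bp. In both-risen bins without a call, the most frequent spacing from 60 bp upwards was 117 bp for Ldb1 and 105 bp for Tal1.

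In the 26 bins not dense in IgG, Ldb1 had 13 to 183 tags with a median of 41, and Tal1 had 0 to 52 with a median of 10.5. The pooled Ldb1 to Tal1 ratio was 3.98 (3.52 to 4.51), and it was 2.93 (2.63 to 3.27) against the left-out Tal1 tags. Tal1 was still well above its mean there (13.9 times, 12.4 to 15.5), and 17 of the 26 were risen in both. The median of Gata2 was 3 tags, and 2 of the 26 (7.69%, 0.946 to 25.1) were Gata2-risen. Also without bins dense in IgG, the 981 bins with 25 to 49 Ldb1 tags had a median of 6 Gata2 tags and 36.1% (33.1 to 39.2) were Gata2-risen. The 9868 bins with 9 to 14 Tal1 tags had a median of 4, and 19.6% (18.8 to 20.4) were Gata2-risen. The interval of the 26 bins thus lay below the share at like Ldb1 and included that at like Tal1.

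The strongest of these 26, on chromosome 8 from 125195501 to 125196000, held 183 Ldb1, 52 Tal1, 52 left-out Tal1 and 30 Gata2 tags and no IgG tag. The bin beside it, from 125195001, was also called, with 49 Ldb1 and 10 Tal1 tags. On chromosome 16, the bin from 8602001 to 8602500 held 126 Ldb1, 39 Tal1 and 2 Gata2 tags, with 62 left-out Tal1 tags. On chromosome 12, the bin from 25235001 held 90 Ldb1, 29 Tal1 and 6 Gata2 tags. On chromosome 9, the bin from 44093001 held 85 Ldb1, 23 Tal1 and 6 Gata2 tags. On chromosome 15, the bin from 103079501 held 76 Ldb1, 24 Tal1 and 5 Gata2 tags. In each of these, Ldb1 was the highest library and Tal1 also passed 9 tags. The 5 bins with the most Ldb1 tags, and the neighbour of the first, were chosen here after the values were seen.

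Ranked by the bound of the interval nearest to 1, the list of Ldb1 excess was led by chromosome 6 from 29698001 to 29698500, with 38 Ldb1 and 2 Tal1 tags but also 5 IgG tags. Of the 10 regions so ranked, 7 had a best bin dense in IgG. Among them were chromosome 8 from 24561001 (62 Ldb1, 10 Tal1 and 91 IgG tags), chromosome 12 from 48710001 (33, 3 and 34) and chromosome 6 from 125842501 (19, 1 and 19). Ldb1 did not exceed IgG in these 3.

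The 3 that were not dense in IgG included chromosome 16 from 6011001 to 6012000, with 17 and 15 Ldb1 tags and no Tal1 tag in 2 adjoining bins. In the first of these, 15 of the 17 Ldb1 tags were on the forward strand, and Gata2 had no tag. The left-out Tal1 tags numbered 0 and 1 there. The others were chromosome 5 from 72482001 (13 Ldb1, 0 Tal1 and 6 left-out Tal1 tags) and chromosome 7 from 63959501 (19, 1 and 5).

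**Figure D2:**
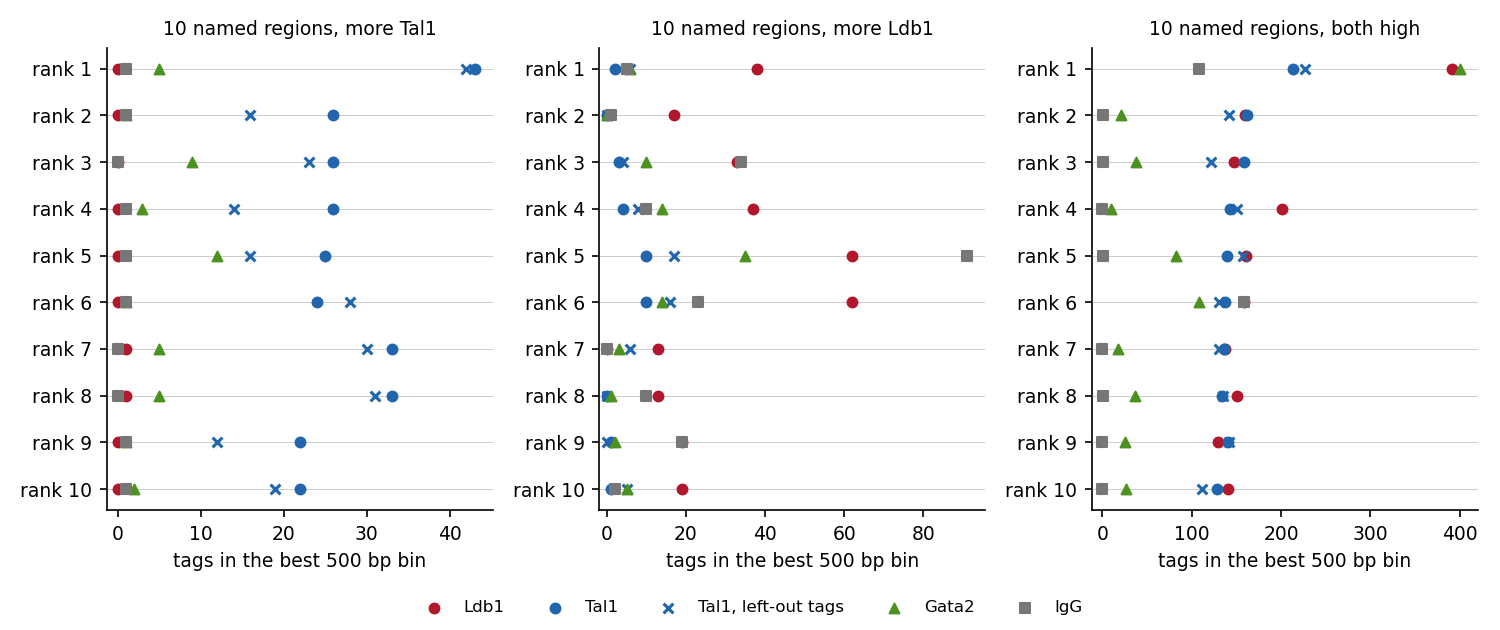
Tags of the 4 libraries in the best 500 bp bin of the 10 regions ranked highest for more Tal1, more Ldb1 and both (horizontal, tags per bin), with the left-out Tal1 tags as crosses; symbols can cover each other. Left-out Tal1 tags stay high in the Tal1 regions, IgG reaches 91 tags in the Ldb1 regions, and in the third panel Ldb1 and Tal1 lie close together. The third panel was ranked by the lower count, which favours even bins.

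Gata2 took no part in choosing the bins, and IgG only in dividing the 47 bins with more Ldb1. Gata2 was above its mean in every class. Both-risen bins without a call had 10.4 times the Gata2 mean (10.3 to 10.5) and bins with more Tal1 8.66 times (8.43 to 8.89). Bins of Ldb1 risen alone had 6.61 times (6.52 to 6.71) and bins of Tal1 risen alone 5.55 times (5.51 to 5.60). These are pooled levels. The medians were 6, 4, 5 and 4 Gata2 tags in the same order, so bins with more Tal1 were below Ldb1 risen alone by median. Bins dense in IgG were kept in these classes, and the 422 both-risen bins dense in IgG had 29.5 times the Gata2 mean. The 26 Ldb1 bins not dense in IgG were at 5.18 times (4.30 to 6.19), an interval that includes the level of Tal1 risen alone. Those dense in IgG were at 18.0 times. Gata2 was risen in 36.8% (35.7 to 38.0) of the both-risen bins, in 23.1% (21.6 to 24.7) of bins with Ldb1 but not Tal1 risen and in 17.0% (16.2 to 17.7) of those with Tal1 but not Ldb1 risen. The share was 20.2% over all tested bins, whose Gata2 level was 6.56 times the mean, and 0.24% over all covered bins. Bins with Tal1 risen alone were thus below the tested bins in general.

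IgG was not flat across these classes. It was at 2.68 times its mean (2.63 to 2.72) in both-risen bins without a call and at 1.94 times (1.88 to 1.99) where Ldb1 rose alone, but at 1.16 times (1.13 to 1.18) where Tal1 rose alone. Of all both-risen bins, 422 were dense in IgG. The longest both-risen stretch, on chromosome 11 from 3039501 to 3080000, had 75 of its 76 bins dense in IgG, with medians of 24 Ldb1, 21.5 Tal1 and 19.5 IgG tags. With bins left out that were dense in IgG or had no IgG tag within 5 bins on either side, 6428 bins were risen in both, 660 had more Tal1 and 25 more Ldb1.

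**Figure D3:**
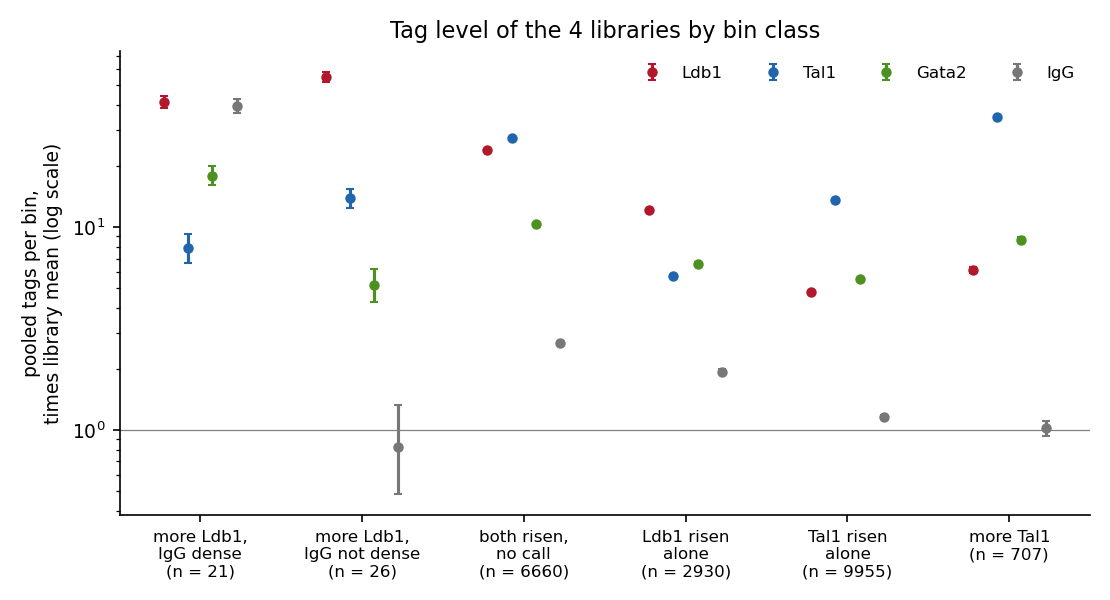
Pooled tags per bin as multiples of each library's mean (vertical, log scale; bars are 95% exact Poisson intervals, counting error only) in 6 classes of bins, with the number of bins under each. Ldb1 and Tal1 levels chose the classes and IgG split the bins with more Ldb1, while Gata2 had no part; among the other classes IgG is near 1 where Tal1 rose alone or exceeded Ldb1 and above 1 where both or Ldb1 alone rose.

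**Figure D4:**
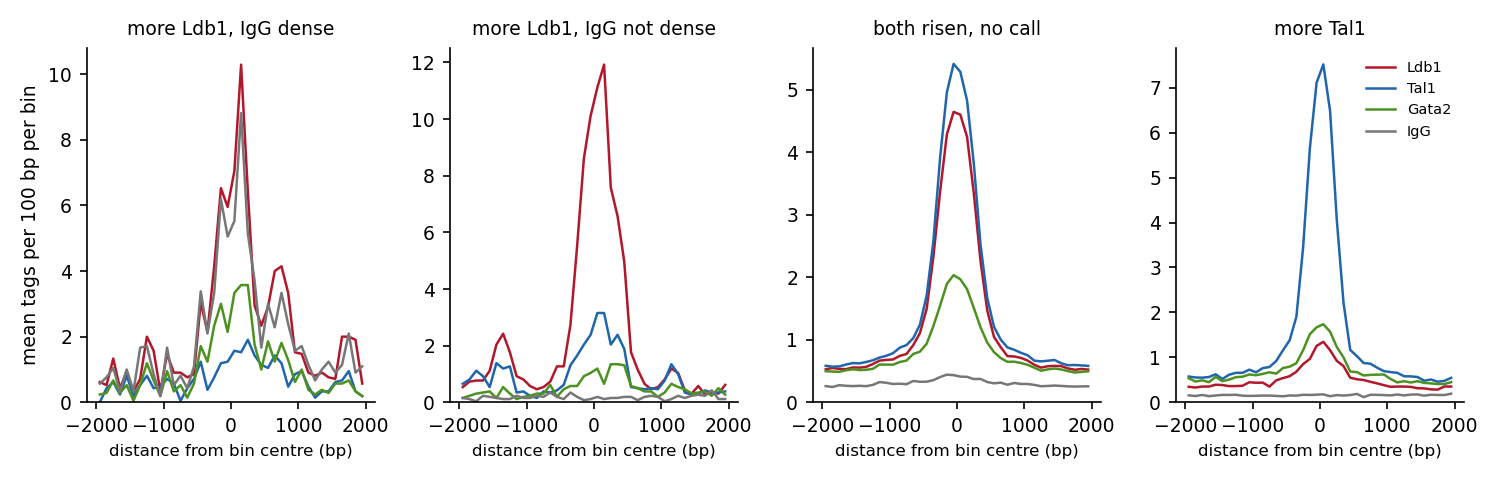
Mean tags per 100 bp in each library within 2000 bp of the bin centre (horizontal, distance in bp), for 4 classes of bins at equal tag numbers (IgG at its own 3401045). In the bins with more Tal1 a small Ldb1 peak stands under the Tal1 peak, and in the first panel IgG follows Ldb1.

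The Ldb1 to Tal1 ratio was next measured in the 17443 bins risen in the left-out Tal1 tags. Neither tag set of the ratio had chosen them, which removes counting error from the choice. The left-out tags are from the same Tal1 library, so the choice still favours whatever is high in that library. The pooled ratio was 0.676 and the median bin had a ratio of 0.586. In the 10340 Gata2-risen bins, chosen on another library, the pooled ratio was 0.808 and the median 0.76. By level, the ratio was 0.664 (0.655 to 0.672) at 9 to 11 left-out Tal1 tags, fell to 0.599 (0.590 to 0.609) at 15 to 19, and rose to 0.693 (0.683 to 0.702) at 30 to 49, 0.830 (0.817 to 0.843) at 50 to 99 and 1.14 (1.11 to 1.17) in the 64 bins at 100 or more. In this tag set, the ratio was thus higher in the strongest Tal1 bins than in weak and moderate ones.

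The turn towards Ldb1 at the top depended on bins dense in IgG and on repeated tags. Without bins dense in IgG, the ratio ran from 0.577 (0.568 to 0.586) at 15 to 19 tags to 0.959 (0.925 to 0.995) in the 50 bins at 100 or more. With repeats kept as well, these values were 0.562 and 0.767. With tags thinned before repeats were removed, they were 0.543 and 0.794. In each of these sets the ratio rose at every step from 20 to 29 tags onwards, but stayed below 1. With bins dense in IgG counted, the value at 100 or more tags was 0.627 with repeats kept, against 0.630 at 9 to 11 tags, so no rise from the weakest level was seen there. It was 0.938 with thinning first, and the excess of Ldb1 over Tal1 was seen only with repeats removed before thinning.

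**Figure D5:**
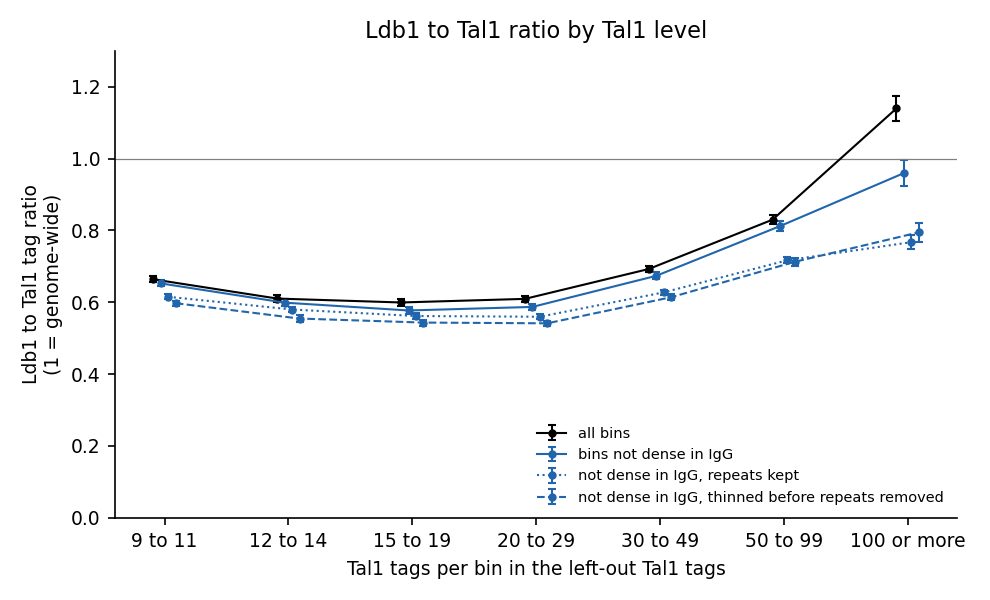
Ldb1 to Tal1 tag ratio (vertical, 1 is the genome-wide ratio) in bins grouped by left-out Tal1 tags (horizontal), for all bins and for bins not dense in IgG under 3 ways of treating repeated tags; bars are 95% exact intervals. All lines are lowest between 15 and 29 tags, and the all-bins line alone passes 1, at 1.14.

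The ratio varied with Gata2 as well. In the same 17443 bins the ratio was 0.537 (0.520 to 0.554) without a Gata2 tag, 0.606 (0.599 to 0.613) at 3 to 5 tags, 0.741 (0.731 to 0.752) at 9 to 14 and 0.890 (0.868 to 0.912) at 25 to 49. At 50 or more it was 1.18 (1.15 to 1.22), but 0.546 with repeats kept. Without bins dense in IgG the values were 0.535, 0.607, 0.730 and 0.804, and the 50 bins with 50 or more Gata2 tags fell back to 0.693 (0.657 to 0.732). Bins rich in Gata2 also had more Tal1, so the Tal1 level was held. At 15 to 24 left-out Tal1 tags and without IgG-dense bins, the ratio was 0.542 (0.530 to 0.555) with 0 to 2 Gata2 tags, 0.566 (0.556 to 0.576) with 3 to 8, 0.649 (0.632 to 0.666) with 9 to 24 and 0.607 (0.542 to 0.680) with 25 or more. At 50 to 99 left-out Tal1 tags the same steps gave 0.745, 0.782, 0.839 and 0.815. At 25 to 49 they gave 0.619, 0.667, 0.653 and 0.603, with no steady rise. With bins dense in IgG counted, the ratio at 15 to 24 left-out Tal1 tags was 0.543 with 0 to 2 Gata2 tags. It was 0.692 with 9 to 24 and 1.01 with 25 or more. The last step thus rested on those bins, while the rise up to 9 to 24 Gata2 tags was smaller without them but remained.

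Within the 6858 both-risen bins, the Ldb1 to Tal1 ratio had a median of 0.832, and 90% of bins lay between 0.366 and 1.73. The Tal1 tags against the left-out Tal1 tags, in the same bins, gave 0.655 to 1.92 around a median of 1.05. Choosing bins by the Tal1 tags themselves shifts that range upwards. On the log2 scale the SD over bins was 0.68 for Ldb1 against Tal1 and 0.48 for Tal1 against itself. Wide departures were more often on the Tal1 side: 229 bins had at least 3-fold more Tal1 and 25 at least 3-fold more Ldb1. When bins were called on a random 50% of the tags of each library, 12 were called for Ldb1 and 86 for Tal1. In the other 50% of the tags, 12 of the 12 and 85 of the 86 went the same way, with pooled ratios of 2.79 (2.28 to 3.43) and 0.305 (0.279 to 0.334).

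Departures were also placed relative to shared regions. A both-risen bin, other than the bin itself, was found within 10 kb of 44.7% of the bins with more Ldb1, 32.7% of the bins with more Tal1, 31.6% of the bins of Tal1 risen alone and 50.3% of both-risen bins without a call. The share was 34.9% over all tested bins and 4.42% over all covered bins, so bins with more Tal1 were not nearer to shared regions than tested bins in general.

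By chromosome, both-risen bins were densest on chromosome 11, with 3.16 per 1000 covered bins (702 bins). These include neighbouring stretches of 76, 30 and 12 bins between 3032001 and 3097000, of which 75, 30 and 12 were dense in IgG. The density without these stretches was not measured. Chromosome 19 followed with 2.45 and chromosome 17 with 2.19, and chromosome 14 was sparsest with 0.974. Bins with more Tal1 made up 1.22% of tested bins on chromosome 7 and 3.42% on chromosome 19. Chromosome 19 also had the lowest ratio of all Ldb1 to Tal1 tags, 0.951 (0.943 to 0.959). Chromosome 8 had the highest, 1.03 (1.02 to 1.03). Outside risen bins, the 2 values were 0.994 and 1.06, so chromosome 19 was lowest there too.

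Over 2367 windows of 1 Mb with at least 500 tags of each library, the Ldb1 to Tal1 ratio had a median of 1.02 and 90% lay between 0.857 and 1.19. The Tal1 tags against the left-out Tal1 tags lay between 0.945 and 1.06. The window ratio correlated with the ratio of IgG to Gata2 at 0.587 (rho 0.621), and with the number of both-risen bins at -0.40 (rho -0.60). These are correlations across windows of the same libraries, which are no replicates. Ldb1 and IgG tags were deposited in one format and Tal1 and Gata2 tags in another, and Tal1 tags are longer. Their part in this relation was not tested. The window with the highest ratio, chromosome 17 from 39000001 to 40000000 (1.54), holds the 12 IgG-dense bins named above. The lowest was on chromosome 6 from 129000001 to 130000000 (0.707), with 1471 Ldb1, 2081 Tal1, 2071 left-out Tal1, 2159 Gata2 and 1675 IgG tags.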

How the data were processed

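Aligned tags of the Ldb1, Tal1, Gata2 and IgG libraries were used as the authors deposited them, 1 line per tag and not normalized. Per the submitters' processing notes, positions are in build mm8. No source used here names the aligner. Ldb1, Gata2 and IgG tags are 25 bp long and Tal1 tags 36 bp. Deposited Ldb1 and IgG tags carry a mismatch class, and deposited Tal1 and Gata2 tags a match descriptor. Alignments free of mismatches were 75% of the Ldb1 and 90.9% of the Tal1 tags.

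Counting, thinning (fixed seed) and tests used Python 3.11.15, numpy 2.4.6, scipy 1.17.1 and pandas 2.3.3. Ratio intervals are exact (Clopper-Pearson), and PCR copies are not independent molecules. Regions were named by a rule: the 10 regions of each direction with the interval bound nearest to 1 farthest from 1, the 10 both-risen regions with the largest lower count, and the 5 most even of the largest 100. The test was run on simulated Poisson tags with equal means of both libraries outside bins with planted folds. Those tags lack the pooled ratio of 0.726 of the tested bins and any spread between libraries. They therefore cannot show how the test performs with either. Bins, lists and questions were chosen with earlier results of these data known. Alternatives were another thinning, all tags, repeats kept, tags without a mismatch, other bins, thresholds and an IgG filter. Chromosomes X, Y and M were left out of the comparison. No sequences are shown, and motif searches and gene lists were not run, because no mm8 genome or annotation was used here.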

Additional observations from a re-analysis of the deposited data

Results flagged for a closer look

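Chromosome X was outside the comparison. At the same thinning, Ldb1 and Tal1 both rose in 68 of its 241086 covered bins, or 0.282 per 1000 bins, below the 0.974 per 1000 of chromosome 14, the sparsest of chromosomes 1 to 19. IgG was at 10 or more times its mean in 38 bins of chromosome X, and 7 of the 68 were among them. The Ldb1 to Tal1 tag ratio of the whole chromosome was 1.10, above that of each of chromosomes 1 to 19.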

How the results depend on the processing

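The main counts were 47 bins with more Ldb1, 707 with more Tal1 and 6858 with both risen, with shares of 69.9% and 39.5%. Tal1 departures outnumbered Ldb1 departures in all 14 alternatives that called them, and no bin called in the main setting was called the opposite way in another setting with the same bins. All 14 tested against a genome-wide or background ratio, while the tested bins pooled stood at 0.726. They therefore cannot tell separate Tal1 departures from the general lean of tag-rich bins to Tal1. Bins with more Ldb1 numbered 84 with all tags, 80 at 2-fold, 21 at 5-fold, 20 at a false discovery rate of 0.001 and 25 with the IgG filter (IgG under 5 times its mean and an IgG tag within 5 bins). Bins with more Tal1 numbered 240 at a false discovery rate of 0.001 and 332 on tags without a mismatch. With repeated tags kept, the counts were 1459 and 2968. Bins with both risen numbered 2925 in bins of 1000 bp, 19483 at 5 times the mean and 2149 at 20 times.

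The share of Ldb1-risen bins with Tal1 was 67.3% with all tags, 61.6% with repeats, 67.5% without mismatches, 78.7% in 1000 bp bins, 39.8% at 5 times and 80.2% at 20 times the mean. The share of Tal1-risen bins with Ldb1 was 46.0%, 42.7%, 39.8% (without mismatches, within its interval), 40.6%, 33.5% and 40.8% in the same order, 38.5% with the IgG filter and 41.6% when tags were thinned before repeats were removed. The last setting, and the other tag sets for ratios by level and for the 100 strongest regions, and the Gata2 shares without bins dense in IgG, were chosen after seeing the data. At other thresholds the values differ by construction, and for the other settings the cause was not tested. In the called bins, left-out Tal1 tags gave Ldb1 to Tal1 ratios of 3.29 in place of 4.38 and 0.204 in place of 0.177. Without replicates, no replicate could be left out. No paired analysis was possible because each antibody has 1 library. The smallest total called was 13 tags, so depth limits calls in weaker bins.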
